A study of Mus musculus with 6 samples.

Results

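To ask whether the machinery that couples the electrical signal of a muscle fibre to contraction differed between tight skin (TSK) and wild-type (WT) skin, 10 genes of excitation-contraction coupling and calcium handling were read in bulk RNA sequencing of mouse dorsal skin. The genes were taken by name, as Cacna1s, Cacng1, Stac3, Ryr1, Trdn, Jph1, Casq1, Atp2a1, Sln and Pvalb, out of 55291 genes in the deposited tables. Each of the 10 was found and passed the filter on low counts. The TSK group held 3 C57BL/6 mice heterozygous for an internal duplication of Fbn1, the gene of the fibrillin that builds elastic microfibrils. The WT group held 3 C57BL/6 mice without it, littermates of the TSK mice. Shaved skin gave 1 library per mouse, the labels name no treatment, and they give both groups an age of 6 to 8 weeks, where the published methods give 8 weeks. Because the duplication is in the germ line and was kept by backcrossing, every cell type of the skin carries it.

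Before the genes are described, some features of the libraries bear on them. Totals ran from 17561453 to 19219814 counts and overlapped between the groups. Fbn1 rose from 262 to 289 CPM (counts scaled to 1000000 per library) in WT to 1538 to 2284 CPM in TSK, so the labels and this gene go together. The labels call the mice female and the published methods call them male. The Y-linked gene Ddx3y was at 56.7 to 72.8 CPM in all 6 libraries with Xist at 2.57 to 4.58 CPM, so the RNA goes with males, as in the methods. Library WT 1 stood apart from the other WT libraries in its muscle genes, and counts of genes called in edgeR and shares of counts are given with and without it.

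In a skeletal muscle fibre, an action potential runs along the surface and down the transverse tubules, where the L-type calcium channel senses the voltage. The channel is mechanically linked to the ryanodine receptor of the sarcoplasmic reticulum, which opens and lets stored calcium out to the contractile filaments. Relaxation follows when calcium is pumped back into the store or bound by proteins of the cytosol. Mouse dorsal skin contains such fibres because a thin sheet of skeletal muscle, the panniculus carnosus, lies under the dermis. Skin of the TSK mouse is known for being bound tightly to the tissue below it.

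All 10 genes had a negative log2 fold change (TSK minus WT) after scaling by TMM, which keeps a few very abundant genes from setting the scale, where 53% of all genes tested were below 0. The changes ran from -1.15 to -0.65, with a median of -0.81 against a median of -0.03 over the 19971 genes tested. Only Cacng1, the gamma 1 subunit of the muscle calcium channel, passed an adjusted p below 0.05 in edgeR's quasi-likelihood test. That is 1 of 10 genes called lower in TSK, where 0.681% of all genes tested were called lower and 3.39% in either direction, and 0 of the 10 were called higher. At an unadjusted p below 0.05 the count was 9 of 10, against 7.9% of all genes tested, with Atp2a1 as the exception. With the stricter rule of more than 2.5-fold at an adjusted p under 0.01, the count was 0, where 0.0351% of all genes were called lower.

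The count of called genes depended on the tool and on WT 1. DESeq2 called 7 of the 10 lower, namely Atp2a1, Cacng1, Casq1, Jph1, Pvalb, Ryr1 and Trdn, where it called 1.98% of all genes lower. Without WT 1 edgeR called 8, Cacng1 and Jph1 with Cacna1s, Casq1, Pvalb, Ryr1, Stac3 and Trdn, where 2.66% of all genes were called lower. With any other single library left out instead, edgeR called only Cacng1. WT 1 was singled out because its muscle genes lay near those of TSK, so more calls without it are built into that choice. Fewer muscle cells in the sample and less of these RNAs per muscle cell cannot be told apart in bulk skin.

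**Figure D1:**
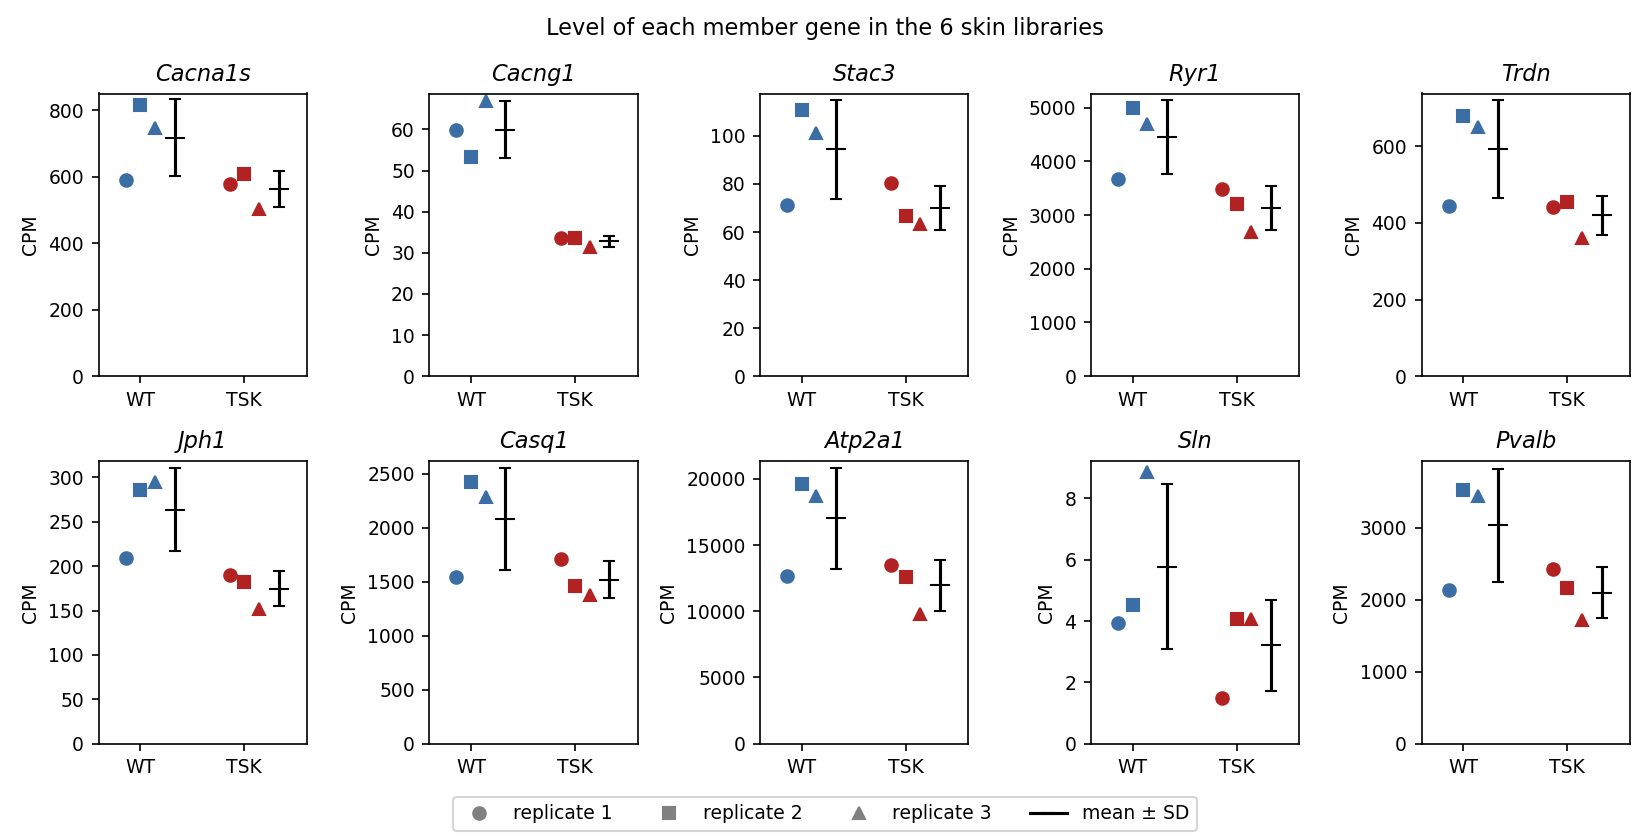
Level of the 10 genes, one panel per gene, as deposited CPM on a linear axis from 0 against genotype; points are single mice and bars are the mean ± SD (n = 3). In Cacng1, Ryr1 and Jph1 every TSK point lies below every WT point, and in most panels WT 1 lies close to the TSK points.

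The voltage sensor was described first. Cacng1 encodes a small skeletal muscle subunit of the calcium channel that dampens its current. In WT 1, WT 2 and WT 3 it was at 59.8, 53.2 and 67.0 CPM, against 33.5, 33.5 and 31.3 CPM in TSK 1, TSK 2 and TSK 3, the order used for all values that follow. The groups did not overlap, the TSK values lay within a narrow band, and WT 1 was not low for this gene. The mean was 60 ± 6.89 CPM in WT and 32.8 ± 1.25 CPM in TSK (SD, n = 3), with a log2 fold change of -1.15 (SE 0.13, adjusted p = 0.00847 in edgeR). Cacng1 passed 0.05 in each of the 16 alternative fits with no fold threshold, where its log2 fold change ran from -1.21 to -0.85 and its adjusted p from 3.71e-09 to 0.0473.

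Cacna1s encodes the pore and voltage sensor to which Cacng1 binds. Its level was 590.5, 817 and 747 CPM in WT and 579, 608 and 504 CPM in TSK. The highest TSK library lay above WT 1, so the groups overlapped, although they did not after TMM scaling. With a log2 fold change of -0.65 (SE 0.23, adjusted p = 0.16 in edgeR), Cacna1s changed least of the 10 on this scale and did not pass the test.

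Stac3, an adaptor that couples the channel to the ryanodine receptor, was at 71.4, 111 and 101 CPM in WT and at 80.5, 66.5 and 63.3 CPM in TSK. Here WT 1 lay below TSK 1, and the groups overlapped on both scales. The log2 fold change was -0.73 (SE 0.24, adjusted p = 0.134 in edgeR).

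The release channel came next. Ryr1, the ryanodine receptor of skeletal muscle, was at 3677, 4984 and 4698 CPM in WT and at 3493, 3203 and 2686 CPM in TSK. No TSK library reached the lowest WT library, but the gap between WT 1 and TSK 1 was small beside the spread within WT (4453 ± 687 CPM in WT, 3127 ± 408 CPM in TSK, SD, n = 3). The log2 fold change was -0.81 (SE 0.28, adjusted p = 0.162 in edgeR).

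Trdn and Jph1 hold the junction together. Jph1, junctophilin 1, bridges the transverse tubule and the sarcoplasmic reticulum, and was at 209.6, 286 and 295 CPM in WT and at 189.7, 182 and 152 CPM in TSK. The groups did not overlap on either scale. Its log2 fold change of -0.89 (SE 0.22) had an unadjusted p of 0.00344 and an adjusted p of 0.068 in edgeR. Trdn, or triadin, anchors calsequestrin beside the ryanodine receptor. Its levels were 445, 680.2 and 650.1 CPM in WT and 443, 455 and 361 CPM in TSK, so that WT 1 was level with TSK 1 and below TSK 2. The log2 fold change of Trdn was -0.80 (SE 0.25, adjusted p = 0.126 in edgeR).

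Casq1, calsequestrin 1, binds calcium inside the store. It was at 1539, 2419 and 2288 CPM in WT and at 1713, 1463 and 1379.5 CPM in TSK, with WT 1 inside the range of TSK. The log2 fold change was -0.76 (SE 0.28, adjusted p = 0.185 in edgeR).

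Uptake was read from the pump and its regulator. Atp2a1, the calcium pump SERCA1 of fast fibres, was at 12663, 19640.2 and 18735 CPM in WT and at 13489, 12603 and 9816 CPM in TSK. It was the 6th most abundant gene of the whole table by mean CPM, and WT 1 again lay inside the range of TSK. Means were 17013 ± 3794 CPM in WT and 11969 ± 1916 CPM in TSK (SD, n = 3), and the log2 fold change of -0.81 (SE 0.38, adjusted p = 0.279 in edgeR) did not pass the test. Sln, sarcolipin, is a short peptide of the membrane that slows this pump. It was at 3.93, 4.53 and 8.85 CPM in WT and at 1.48, 4.06 and 4.08 CPM in TSK, which rests on 69, 85 and 161 counts in WT and on 27, 78 and 77 counts in TSK. WT 3 was high and TSK 1 low, and the other 4 libraries lay close together. The log2 fold change of Sln was as great as that of Cacng1, at -1.15, but with an SE of 0.43 and an edgeR adjusted p of 0.188. It was -0.67 without WT 3 and -0.82 without TSK 1.

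Pvalb, parvalbumin, binds calcium in the cytosol of fast fibres and speeds relaxation. Its level was 2130.2, 3532 and 3449 CPM in WT and 2424, 2159.8 and 1714 CPM in TSK. WT 1 lay below 2 of the 3 TSK libraries. The log2 fold change was -0.84 (SE 0.32, adjusted p = 0.191 in edgeR).

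Over the 10 genes, 3 did not overlap between the groups with TSK lower on deposited CPM, where 2.58% of all genes tested did so. After TMM scaling 6 did not overlap (Cacna1s, Cacng1, Ryr1, Trdn, Jph1 and Sln), where 10.6% of all genes did so. TMM factors ran from 0.823 to 1.13 and thus moved the groups apart. With scaling by library size only, the median over all genes rose to 0.25 and that of the 10 genes to -0.51, and all 10 stayed below 0 and below the median of all genes.

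Per length, the levels covered 3 orders of magnitude. In CPM per kilobase of exon, WT and TSK means were 4893 ± 1091 and 3442 ± 551 for Atp2a1, 2917 ± 756 and 2017 ± 345 for Pvalb, and 1067 ± 243 and 778 ± 89.1 for Casq1. Pump, buffer and store protein were thus the most abundant, followed by Ryr1 at 204 ± 31.5 and 143 ± 18.7 and Cacna1s at 109.7 ± 17.7 and 86.1 ± 8.19 CPM per kilobase. In WT, Casq1 lay below Pvalb and above Ryr1 in every library, and Cacna1s lay above Trdn, at 63.3 ± 13.7. Trdn, Jph1 (52.7 ± 9.40) and Cacng1 (48.0 ± 5.52) were neighbours whose WT ranges overlapped, as were Cacng1 and Stac3 (37.1 ± 8.07). Sln was lowest by far, at 4.38 ± 2.04 in WT and 2.43 ± 1.13 CPM per kilobase in TSK. In TSK the order differed at 1 place, since Stac3 (27.6 ± 3.58) and Cacng1 (26.2 ± 1.00) changed rank within overlapping ranges.

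The 10 genes varied together over the 6 libraries. On TMM-scaled log2 CPM, the Pearson correlation of a gene with the mean of the other 9 ran from 0.955 to 0.994 for 8 genes, and was 0.887 for Cacng1 and 0.635 for Sln. These values are a description over 6 libraries that share depth, scaling and genotype. Among 12008 genes with a mean of at least 5 CPM, those with a profile most like the mean of the 10 included Reep1 (r = 0.9976), Cyb5r1 (0.9972), Rxrg (0.9969), Gpc1 (0.9966), Psmd7 (0.9966), Srpk3 (0.9964) and Phka1 (0.9964). Their log2 fold changes ran from -1.07 for Phka1 to -0.31 for Psmd7, with adjusted p from 0.0675 to 0.211 in edgeR, so that 0 of these 7 were called, while all 7 had an unadjusted p below 0.05. DESeq2 called 4 of them lower (Reep1, Rxrg, Gpc1 and Phka1), and without WT 1 edgeR called each of them except Psmd7. These genes were picked for a profile like that of the 10, which was itself lower in TSK. Their negative values, low p-values and calls follow from that choice and are no separate result.

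Because the genes varied together, their promoters are shown where the RefSeq table of GRCm38.p6 held them, which was the case for Cacna1s, Casq1, Ryr1, Atp2a1 and Pvalb and not for Cacng1, Stac3, Trdn, Jph1 or Sln. The 250 bases before the annotated start were searched on both strands for the E-box CAGCTG, a form of CANNTG to which myogenic factors are known to bind, for the MCAT element CATTCC and for the MEF2 and CArG motifs by name. Pvalb had 2 entries, so 6 sequences were searched. The general form CANNTG was in 4 of the 6, where 66.2% of all windows held it. The E-box CAGCTG was in 3 of the 6 and in 13% of 32851 mouse promoter windows. It began 123 bases before the RefSeq start in Cacna1s, 195 in Casq1 and 55 in Atp2a1. The RefSeq starts of Cacna1s, Ryr1, Atp2a1 and 1 of the Pvalb entries lie inside the GENCODE spans of these genes given further below. CATTCC was in 1 of 6, Cacna1s, and in 12.6% of all windows, and MEF2 in 1 of 6, Pvalb, and in 2.92%. CArG was in 0 of 6 and in 1.47%. These are matches of letters, not sites shown to be bound. The 4 sequences that hold the MCAT element, the MEF2 motif or CAGCTG follow 5′ to 3′ on the strand of the gene, at chr1:136052561-136052810 (plus) for Cacna1s, chr1:172219896-172220145 (minus) for Casq1, chr7:126463074-126463323 (minus) for Atp2a1 and chr15:78206401-78206650 (minus) for Pvalb, with the matches to these 3 motifs in capitals and other CANNTG matches left in lower case.
Cacna1s: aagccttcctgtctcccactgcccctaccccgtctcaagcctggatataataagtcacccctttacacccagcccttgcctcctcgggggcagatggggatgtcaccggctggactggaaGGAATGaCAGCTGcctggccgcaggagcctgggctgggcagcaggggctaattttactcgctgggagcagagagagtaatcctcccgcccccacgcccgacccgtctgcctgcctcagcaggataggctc
Casq1: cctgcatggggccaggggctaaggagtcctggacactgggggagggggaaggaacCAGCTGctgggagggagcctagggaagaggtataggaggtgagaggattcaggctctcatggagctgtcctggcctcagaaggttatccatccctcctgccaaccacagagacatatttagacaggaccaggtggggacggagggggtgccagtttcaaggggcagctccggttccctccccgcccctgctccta
Atp2a1: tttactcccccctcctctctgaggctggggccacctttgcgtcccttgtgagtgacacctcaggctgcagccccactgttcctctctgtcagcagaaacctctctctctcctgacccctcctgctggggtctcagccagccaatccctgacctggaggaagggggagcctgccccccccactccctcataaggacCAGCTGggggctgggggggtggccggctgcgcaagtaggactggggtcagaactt
Pvalb: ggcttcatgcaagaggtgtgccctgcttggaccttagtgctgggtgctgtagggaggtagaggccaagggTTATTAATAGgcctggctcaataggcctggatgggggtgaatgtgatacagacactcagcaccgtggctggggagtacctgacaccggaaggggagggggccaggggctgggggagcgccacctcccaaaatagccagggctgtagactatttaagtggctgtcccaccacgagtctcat

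The genes were then set against the other genes of the same pathway, of which 27 of 28 passed the filter. Strit1, an activator of the pump, had only 0 to 11 counts per library and was not tested. In edgeR 0 of the 27 passed an adjusted p of 0.05 in either direction. At an unadjusted p below 0.05 there were 11 lower and 1 higher in TSK. Of all 19971 genes tested, 7.9% were lower and 2421 higher at that threshold. DESeq2 called 8 of the 27 lower and 0 higher, where it called 1.98% of all genes lower. Without WT 1 edgeR called 13 lower, where 2.66% of all genes were called lower. The median log2 fold change was -0.54, with 23 of 27 below 0 after TMM scaling and 17 of 27 with scaling by library size only. Relative to the median of all genes, 22 of 27 lay lower under both scalings.

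**Figure D2:**
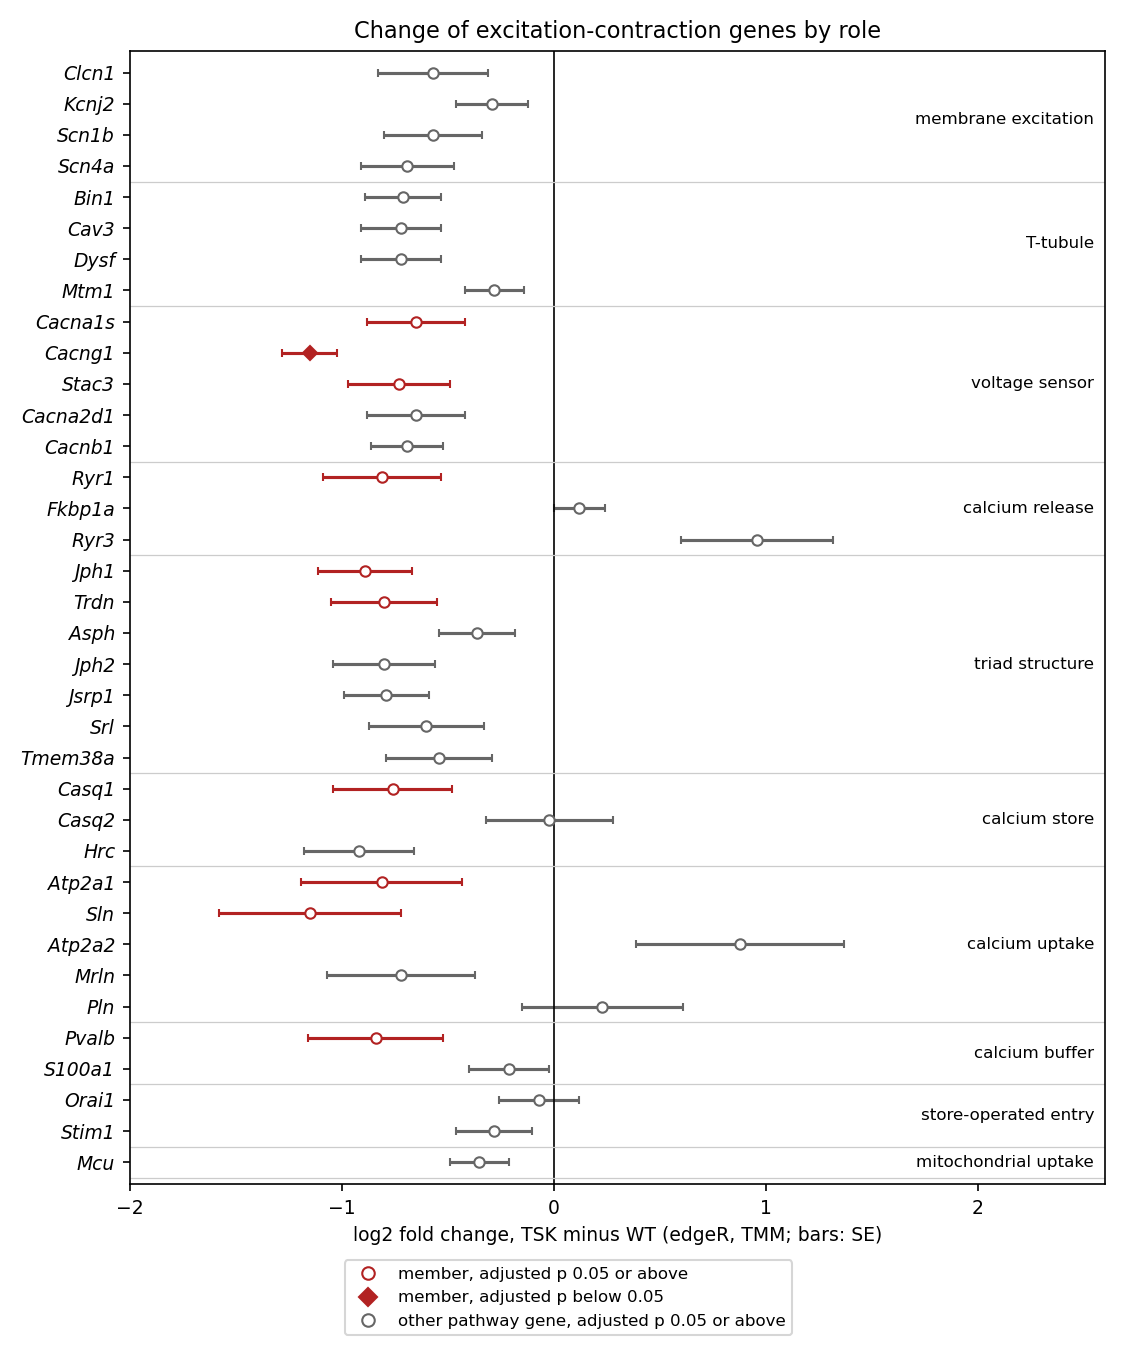
Log2 fold change (TSK minus WT) of the 10 genes, in red, and of 26 further genes of the pathway, in grey, grouped by role, with bars for the SE (edgeR, TMM, n = 3 mice per group); filled diamonds mark an adjusted p below 0.05. Cacng1 at -1.15 is the only filled symbol, and Ryr3 (0.96) and Atp2a2 (0.88) are farthest to the right.

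Genes of the surface and transverse tubule membrane named here had values below 0, and none passed the test. Scn4a, the sodium channel that carries the action potential, had a log2 fold change of -0.69 (SE 0.22, adjusted p = 0.13 in edgeR). Bin1, which shapes the tubules, was at 311 ± 32.8 and 233 ± 7.53 CPM with no overlap, and its adjusted p of 0.068 in edgeR was just above the threshold. Cacnb1, the beta subunit of the channel, came closest to a call among the 27, at 137 ± 12.8 CPM in WT and 105 ± 9.12 CPM in TSK (log2 fold change -0.69, SE 0.17, adjusted p = 0.0667 in edgeR).

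At the junction, Jph2, the partner of Jph1, changed by -0.80 on the log2 scale (SE 0.24, adjusted p = 0.114 in edgeR), and Jsrp1, a small protein of the junction, by -0.79 (SE 0.20, adjusted p = 0.068). Hrc, which binds calcium in the store, had the lowest value of the 27 at -0.92 (SE 0.26, adjusted p = 0.0989 in edgeR). Srl and Tmem38a, of the sarcoplasmic reticulum membrane, were at -0.60 and -0.54. Fkbp1a, which stabilises the ryanodine receptor and is made in most cells, was at 0.12, with an edgeR adjusted p of 0.639.

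Atp2a2, Casq2 and Ryr3, paralogues that other fibres or tissues use, had values near or above 0. Atp2a2 encodes the pump SERCA2 of slow and cardiac fibres, which other cells also make. Its level was 122, 281 and 124 CPM in WT and 209, 680.3 and 337 CPM in TSK. WT 2 and TSK 2 were the highest of their groups, and the log2 fold change of 0.88 (SE 0.49, adjusted p = 0.364 in edgeR) did not pass the test. It was 1.51 without WT 2 and 0.30 without TSK 2, and with the replicate number as a block, although the numbers did not pair the mice, Atp2a2 was called higher (adjusted p = 0.0369 in edgeR). Casq2, the slow and cardiac calsequestrin, was at 16.2, 23.6 and 23.4 CPM in WT and at 20.1, 37.5 and 19.6 CPM in TSK, with a log2 fold change of -0.02 after TMM and of 0.29 with scaling by library size. Ryr3, a minor ryanodine receptor, was near the limit of detection at 0.513, 0.426 and 0.385 CPM in WT and 0.715, 1.04 and 1.38 CPM in TSK, with a log2 fold change of 0.96 (SE 0.36, adjusted p = 0.188 in edgeR). The inhibitors Pln and Mrln had values of 0.23 and -0.72, neither of which passed, and that of Mrln was -0.35 without WT 2 and -1.01 without TSK 2.

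Ratios between partners, taken per length and chosen after the values had been seen, are given as a description with no test. Of 13 such ratios, 8 overlapped between the groups and 5 did not. Atp2a2 was at 0.552, 0.818 and 0.380% of the level of Atp2a1 in WT and at 0.885, 3.09 and 1.97% in TSK, and Casq2 was at 0.752, 0.695 and 0.728% of Casq1 in WT and at 0.838, 1.83 and 1.01% in TSK. Both ratios were higher in every TSK library than in any WT library. Cacng1 was at 53.1, 34.1 and 47.0% of Cacna1s in WT and at 30.3, 28.9 and 32.6% in TSK, again with no overlap but with WT 2 close to TSK 3. Ryr1 was at 1.87, 1.83 and 1.89 times the level of Cacna1s in WT and at 1.81, 1.58 and 1.6 times in TSK, and Jph1 at 24.9, 25.1 and 27.5% of Ryr1 in WT and 23.7, 24.8 and 24.8% in TSK, in both cases with no overlap but with the nearest libraries close together. Among the 8 that overlapped were the ratios of Stac3, Cacnb1 and Cacna2d1 to Cacna1s, of Trdn and Casq1 to Ryr1, of Sln and Pvalb to Atp2a1 and of Jph2 to Jph1. Pvalb was at 59.2 ± 2.74% of Atp2a1 in WT and 58.5 ± 1.4% in TSK, and Cacna2d1, the alpha-2-delta subunit, was at 24.3 ± 1.56% and 24.3 ± 0.317% of Cacna1s (SD, n = 3).

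**Figure D3:**
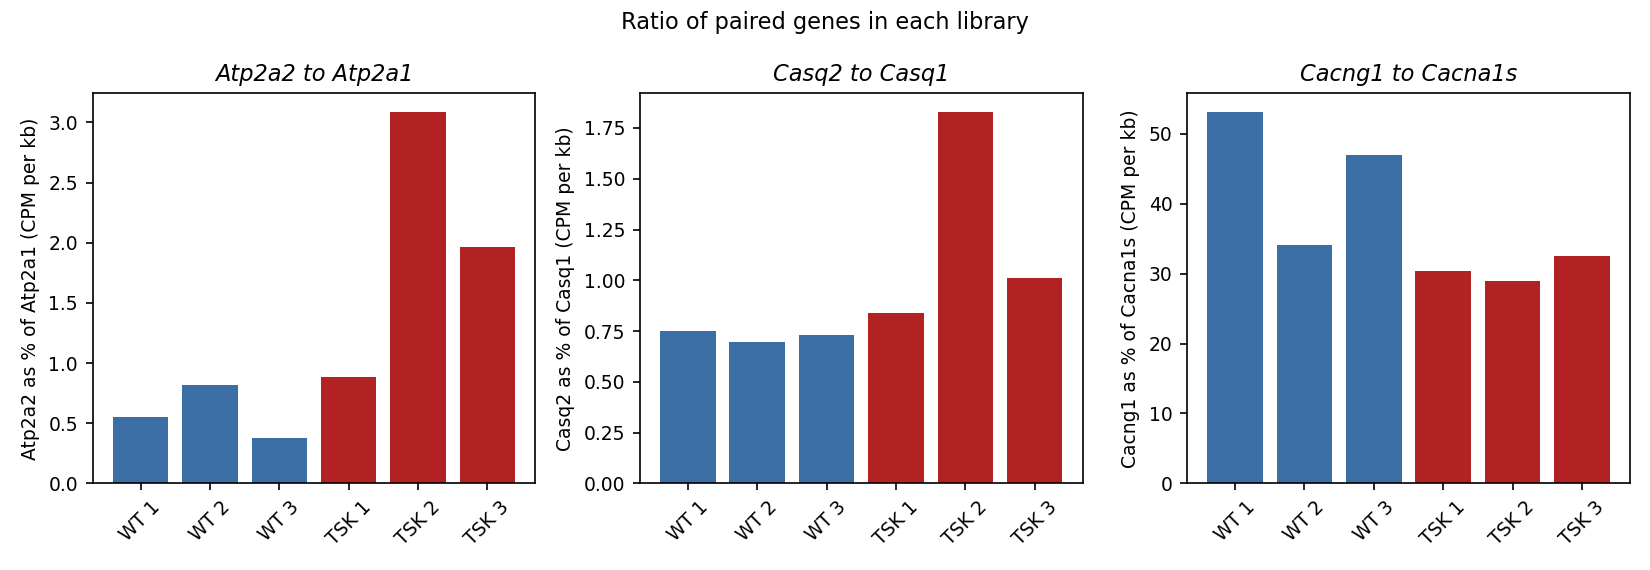
Atp2a2 as a percentage of Atp2a1, Casq2 of Casq1 and Cacng1 of Cacna1s, in CPM per kilobase of exon, one bar per library on a linear axis from 0 (WT blue, TSK red). In the first and second panels every TSK bar is above every WT bar, highest in TSK 2 at 3.09% and 1.83%, and in the third panel the TSK bars of 28.9 to 32.6% are below the WT bars.

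Slow fibre genes were highest in the same libraries as Atp2a2. Casq2 was also highest in TSK 2, but WT 2 and WT 3 were level for it (23.6 and 23.4 CPM). Its level in TSK 3 (19.6 CPM) was not above that in TSK 1 (20.1 CPM). The summed level of 6 slow fibre genes (Myh7, Tnnt1, Tnni1, Tnnc1, Myl2 and Myl3) was 22.9, 845 and 29.0 CPM in WT and 214, 1601 and 707 CPM in TSK, highest in WT 2 and TSK 2 and overlapping between the groups. All 6 had a log2 fold change above 0 and 0 of 6 were called in edgeR, with 0 of 6 at an unadjusted p below 0.05. DESeq2 also called 0 of 6. Of the fast myosins, Myh4 had a log2 fold change of -1.09 (adjusted p = 0.182 in edgeR), Myh1 of 0.09 (0.925) and Myh2 of 1.26 (0.067). DESeq2 called 1 of the 3 higher and 1 lower, as did edgeR without WT 1. Heart markers were near 0, with Nppa at 0 counts in all 6 libraries, Myh6 at 0.138 to 2.07 CPM and Tnni3 at 0.440 to 1.75 CPM. The exception was Ryr2, which other cells also make, with means of 2.99 CPM in WT and 5.79 CPM in TSK and no overlap (adjusted p = 0.195 in edgeR). The part of fibre type, or of other cells, in the values of Atp2a2 and Casq2 was not tested.

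The genes were also compared with 12 genes of the adult sarcomere, the contractile unit (Acta1, Actn3, Neb, Ttn, Mybpc2, Myl1, Mylpf, Tnnc2, Tnni2, Tnnt3, Tcap and Myom2). The 10 genes took 2.14, 3.25 and 3.10% of the counts in WT and 2.24, 2.08 and 1.67% in TSK (exact permutation test, two-sided, p = 0.2). The 12 sarcomere genes took 12.2, 17.7 and 16.9% in WT and 12, 11.5 and 10.8% in TSK (exact permutation test, two-sided, p = 0.1), the lowest value possible with 3 mice in each group. WT 1 lay beside the TSK libraries in both shares. Without it, a setting added after the data had been seen, the mean share of the 10 genes was 3.18% in WT against 2% in TSK, and that of the sarcomere genes 17.3% against 11.4%. The median log2 fold change of the sarcomere list was -0.78, with 12 of 12 below 0 and 0 called in edgeR. At an unadjusted p below 0.05 in edgeR 8 were lower, where 7.9% of all genes were. DESeq2 called 9 lower, where it called 1.98% of all genes lower. Without WT 1 the median was -1 with 8 of 12 called lower, where 2.66% of all genes were.

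Each gene was then expressed relative to the mean log2 level of the sarcomere genes in the same library, on log2(CPM + 1). The difference between TSK and WT shrank to between -0.37 and 0.14, and the groups overlapped for all 10. It was -0.03 for Ryr1, 0.00 for Trdn, -0.01 for Atp2a1, 0.05 for Casq1, -0.03 for Pvalb, 0.07 for Stac3, -0.10 for Jph1, 0.14 for Cacna1s and -0.21 for Sln. The difference for Cacng1 was -0.37, from values of -5.50, -6.24 and -5.82 in WT to -6.29, -6.19 and -6.20 in TSK, where WT 2 lay inside the TSK range. It was -0.19 without WT 1 and -0.56 without WT 2, and Sln had a more negative value than Cacng1 without WT 1 (-0.23) and without TSK 3 (-0.43 against -0.38). Exact permutation p-values ran from 0.2 to 1 and were 0.75 to 1 after adjustment over the 10 genes, in a design that cannot go below 0.1. Against the 3 fast myosin genes in place of the sarcomere list all 10 differences were more negative, from -1.27 for Cacng1 to -0.77 for Cacna1s (exact permutation test, two-sided, p = 0.1 for each gene, the lowest value possible). That reference is a mean of log2 levels, which gives Myh1, Myh2 and Myh4 equal weight. From WT to TSK the means of Myh1 (4787 to 6394 CPM) and Myh2 (551 to 1642 CPM) rose. The mean of the more abundant Myh4 fell (35482.5 to 20431 CPM). The summed CPM of these genes, not used as a reference, was 32843, 46768 and 42851 in WT and 31366, 27114 and 26918 in TSK.

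**Figure D4:**
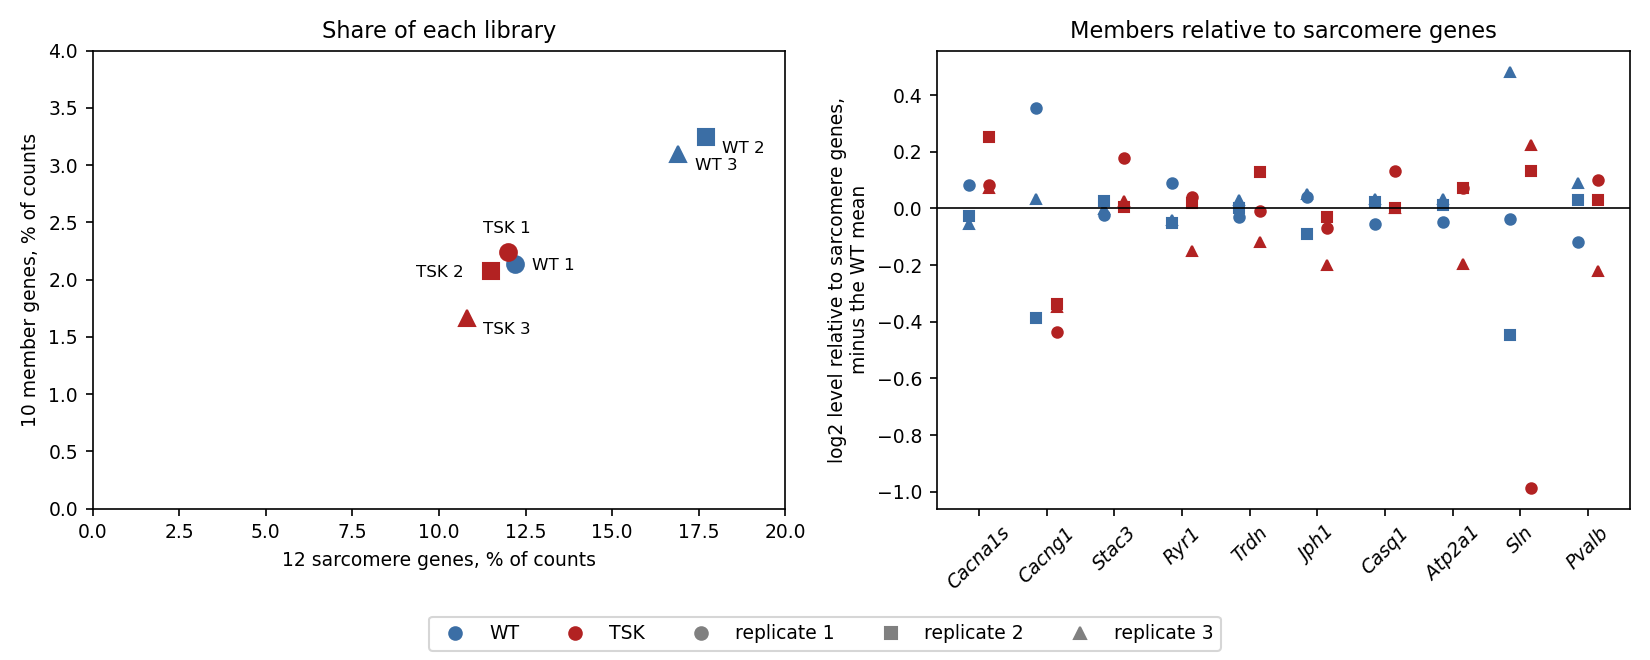
Left, the share of counts of the 10 genes against that of 12 sarcomere genes, one point per library, both axes linear from 0; right, the log2 level of each gene relative to the sarcomere genes, minus its WT mean (WT blue, TSK red, symbols for the replicate number). WT 1 (12.2% and 2.14%) lies among the TSK libraries at left, and at right Cacng1 and Sln spread more widely than the other 8 genes.

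Levels of other cell types are given beside these values. Summed fibroblast markers (6 genes, all at non-zero levels) were at 6324 to 9624 CPM in WT and at 20324 to 47280.3 CPM in TSK, with 0 of 6 called in edgeR, 4 higher at an unadjusted p below 0.05 and 4 called higher by DESeq2. Summed adipocyte markers (5 genes) were at 92.0 to 125 CPM in WT and at 289.9 to 1844 CPM in TSK, with 2 of 5 called higher in edgeR and 4 of 5 in DESeq2. Of all 19971 genes tested in edgeR, 2421 were higher at an unadjusted p below 0.05 and 2.71% were called higher. DESeq2 called 1135 of 20629 genes higher. Keratinocyte markers, which define the epidermis, summed to 2699 to 5349 CPM in WT and 3028 to 5384 CPM in TSK. Of 4 genes of developing muscle (Myh3, Myh8, Myl4 and Myog), 4 were called lower in edgeR, where 0.681% of all genes were. Their median log2 fold change was -2.97, and their sum was 147, 96.7 and 235 CPM in WT and 26.5, 20.1 and 24.9 CPM in TSK. Without WT 1 edgeR called 1 of 5 adipocyte markers higher, and its counts for the fibroblast, keratinocyte, developing muscle, slow fibre and heart lists did not change. The part of these cell types in the values of the 10 genes was not tested.

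Calcium genes of other cells were called higher or not at all. Of 12 such genes (Ryr2, Cacna1c, Stac, Stac2, Atp2a3, Atp2b1, Atp2b4, Itpr1, Itpr2, Itpr3, Slc8a1 and Calr), 2 were called higher in TSK, where 2.71% of all genes were, and 0 lower. DESeq2 called 3 higher, where it called 1135 of 20629 genes higher, and 0 lower. Without WT 1 edgeR again called 2 higher and 0 lower. Stac, a relative of Stac3, rose from 0.740, 0.213 and 0.275 CPM in WT to 2.36, 2.45 and 2.01 CPM in TSK (log2 fold change 2.22, SE 0.39, adjusted p = 0.0239 in edgeR). Stac2 rose from 0.968, 0.639 and 0.825 CPM to 3.57, 2.24 and 4.98 CPM (log2 fold change 1.87, SE 0.34, adjusted p = 0.0284 in edgeR). Neither gene overlapped between the groups, but both were of low level, and 29.1% of all genes tested were likewise higher with no overlap on deposited CPM (14.1% after TMM scaling). The adjusted p of Stac was 0.074 without WT 2, 0.116 without WT 3, 0.055 without TSK 1 and 0.0585 without TSK 2, and that of Stac2 was 0.0872, 0.114 and 0.0588 without WT 2, WT 3 and TSK 1 and 0.063 without TSK 3. With limma-voom the adjusted p of Stac2 was 0.056. Ryr2, the heart ryanodine receptor, was at 2.99 ± 0.854 CPM in WT and 5.79 ± 1.66 CPM in TSK (SD, n = 3; log2 fold change 0.67, adjusted p = 0.195 in edgeR).

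All 10 genes are protein coding in mm10 (GRCm38), and their starts and ends in the deposited table matched GENCODE M21. Cacng1 lies at chr11:107703218-107716522 (minus), Cacna1s at chr1:136052750-136119822 (plus), Stac3 at chr10:127501686-127508823 (plus), Ryr1 at chr7:29003344-29125179 (minus) and Trdn at chr10:33080554-33476709 (plus). Jph1 lies at chr1:16964560-17097889 (minus), Casq1 at chr1:172209894-172219868 (minus), Atp2a1 at chr7:126445858-126463108 (minus), Sln at chr9:53850164-53854560 (plus) and Pvalb at chr15:78191114-78206400 (minus). Exons of 5 genes share bases with a gene on the other strand, and the strand setting of the counting is not given in the sources used here. The most shared exonic bases, 1309 in all, were between Cacna1s and Gm37759 (0.182 to 0.536 CPM), and the most abundant partner was Rabep2 (11.5 to 17.9 CPM), which shares 763 bases with Atp2a1. Levels of these partners were far below those of Cacna1s, Ryr1, Casq1, Jph1 and Atp2a1, and Cacng1, Stac3, Trdn, Sln and Pvalb share no exonic bases with another gene.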

How the data were processed

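Dorsal skin RNA of 6 mice, 3 in each genotype, was sequenced, and groups were taken from the sample labels. Per the labels and methods, the authors depleted ribosomal RNA, made stranded libraries, sequenced single-end reads of 50 bases, aligned them with STAR to mm10 and quantified Ensembl genes in Partek Flow 11.0, after demultiplexing with bcl2fastq 2.19.1.403. The authors deposited a table named as raw counts, of which 43.3% to 45.4% of the non-zero values per library were whole (within 0.001), so these are estimated counts and were rounded for testing, although raw counts had been planned for. They also deposited CPM, counts scaled to 1000000 per library. Depth was 17561453 to 19219814 counts per library.

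The main test was edgeR 4.0.16 (quasi-likelihood, TMM, filterByExpr, R 4.3.3) on all 6 libraries, with Benjamini-Hochberg adjustment over all 19971 genes kept. A gene was called at an adjusted p below 0.05, and the study's DESeq2 thresholds (fold change above 2.5, adjusted p below 0.01) were a second rule. P-values measure the spread between these mice. The SE was derived from the F statistic and the log2 fold change. Levels relative to sarcomere genes used log2(CPM + 1) and an exact permutation test. Alternatives were DESeq2 1.42.0, limma 3.58.1 (voom, and trend on log2 CPM with a pseudocount of 1 or 0.1), other scalings, other filters, the replicate number as a block, and each library left out in turn. The edgeR and DESeq2 code was tested on simulated data.

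The 10 genes and all lists were chosen with earlier results of these data known. Named genes were the 10, then from the pathway list the 6 of highest mean CPM, the 3 of greatest rise and 3 of greatest fall with a mean of at least 1 CPM, and named paralogues. Bin1, Cacnb1, Cacna2d1 and the partner ratios were singled out after their values were seen. Coordinates are 1-based and were checked against GENCODE M21. Transcripts were compared by BLAST 2.17.0 (at least 50 bases at 95% identity), and matches were found only in genes that overlap the gene itself. Promoters came from RefSeq. No protein sequence is printed. Single-cell data of the study were not used. Values of 2 genes that the naming rules select are not reported here.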

Additional observations from a re-analysis of the deposited data

How the results depend on the processing

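Over 16 alternative fits of the 10 genes, 146 of 160 gene values kept direction and side of the threshold, 14 moved past it and 0 reversed. The median log2 fold change of the 10 genes was -0.81 in the main fit. In every other fit it lay less than the spread between replicates (1 SD, 0.326) away from that value. It ran from -1.01 to -0.62 when 1 library was left out. The number of the 10 called lower was 7 with DESeq2, 2 with no low-count filter (Cacng1 and Jph1, where 0.997% of all genes were called lower), 0 under the study thresholds and 1 to 8 when 1 library was left out, with 8 without WT 1. Among the other pathway genes the count called lower, 0 in the main fit, was 8 with DESeq2, 6 with no filter and 0 to 13 when 1 library was left out, with 13 without WT 1.

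Over all genes, 542 higher and 136 lower became 1685 higher with library size only, 1135 and 409 with DESeq2, 1771 and 1761 higher with limma-trend at a pseudocount of 1 and 0.1, and 1040 and 347 with no filter. Leaving out 1 library gave 45 to 713 higher and 15 to 547 lower. Why they differ was not tested.

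The replicate numbers did not pair the mice (correlations of same-numbered libraries 0.0112, 0.167 and -0.0938). With the replicate block 1 of the 10 genes, Cacng1, was again called, and 1 other pathway gene, Atp2a2, was called higher (adjusted p = 0.0369 in edgeR).

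Relative to sarcomere genes, the differences depended on the reference. With their summed CPM as reference Trdn was at -0.05 and Casq1 at 0. With the equally weighted mean log2 level of the fast myosins, which changed in different directions, all 10 genes were at -1.27 to -0.77. Of these, Cacna1s (-0.77), Stac3 (-0.83), Trdn (-0.90) and Casq1 (-0.86) had not been below 0 in the main setting. Without 1 library the ranges were -0.06 to 0.03 for Ryr1, -0.06 to 0.06 for Trdn, -0.06 to 0.08 for Atp2a1, -0.43 to 0.18 for Sln and -0.09 to 0.06 for Pvalb. Casq2 turned to 0.29 with library size only and to 0.23 and 0.24 with limma-trend, and ran from -0.38 to 0.16 without 1 library, as Pln did from -0.12 to 0.49. Low counts limit Sln, Ryr3, Stac, Stac2 and Pln.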

Other observations

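Other markers read beside the muscle genes gave mixed values. Of 5 smooth muscle markers, 1 was called higher and 0 lower in edgeR (3 and 1 with DESeq2, 2 and 1 in edgeR without WT 1). Over all genes tested, edgeR called 2.71% higher and 0.681% lower, and 2421 of 19971 were higher at an unadjusted p below 0.05. DESeq2 called 1135 higher and 409 lower of 20629. Acta2, Myh11, Cnn1 and Tagln were each higher in every TSK library than in any WT library on deposited CPM (Myh11 at 34.4 and 71.9 CPM on average), whereas Des, which skeletal muscle also makes, was lower in every TSK library (1949 and 1313 CPM on average). Of all 19971 genes tested, 5802 (29.1%) were likewise higher with no overlap on deposited CPM, and after TMM scaling Acta2 overlapped between the groups. Of 4 macrophage markers 0 were called in edgeR (2 higher at an unadjusted p below 0.05, 2 called higher by DESeq2), and of 3 endothelial markers 0 were called (3 higher at an unadjusted p below 0.05, 1 by DESeq2). Without WT 1 edgeR again called 0 in both lists. Of 5 keratinocyte markers 1 was called higher by either tool. Atp2a3, a calcium pump, and Itpr1, an inositol trisphosphate receptor, were from the list of calcium genes of other cells. Like 29.1% of all genes tested, both were higher in every TSK library than in any WT library on deposited CPM. Atp2a3 was at 10.8 ± 1.01 against 19.9 ± 2.40 CPM and Itpr1 at 29.4 ± 2.20 against 57.7 ± 14.3 CPM (SD, n = 3). Neither passed in edgeR (adjusted p = 0.104 and 0.098).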
